A study of Thermothelomyces thermophilus ATCC 42464 with 8 samples.

Results

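The genes described here are the DNA replication genes of the thermophilic filamentous fungus Myceliophthora thermophila (Thermothelomyces thermophilus). They are the genes whose wording fits a rule: the gene description, up to its first semicolon, had to mention DNA replication, DNA polymerase, DNA primase, Mcm2-7, origin recognition, replication factor, GINS, PCNA or ribonucleotide reductase. The rule found 56 of the 9110 genes in the count table, and all 56 were among the 8335 genes tested after the filter on low counts. Each description was taken over from the closest gene of Saccharomyces cerevisiae, so the roles named are those known from that yeast. By description, 41 members belong to the core replication machinery, 6 to translesion synthesis and repair and 1 is the mitochondrial polymerase, while the other 8 mention replication in passing.

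RNA was taken from 4 strains, with 2 libraries each. JG207, the starting strain, overexpresses the malate transporter Aomae and the pyruvate carboxylase Aopyc, and all strains share this background. DF1102 is JG207 with the d-xylose reductase gene Mtxyl1 deleted. DF1406 is JG207 lacking Mtxyl1 and with Mtxyd1, xylD, xylX and xylA overexpressed, and DF1501 likewise lacks Mtxyl1 and overexpresses Mtxyd1, xylD, BxxylX and KsaD. Whether both were built from DF1102 itself is not given in the sources used here. The overexpressed genes make up the Weimberg pathway, which oxidises d-xylose to alpha-ketoglutarate instead of reducing it to xylitol. Mtxyd1 and xylD sit behind strong constitutive promoters, and the pathway genes were inserted at random, so each pathway strain carries its own insertions. All mycelia were pregrown for 24 h in 2% glucose and moved to 1% d-xylose for 4 h at 45 °C and 150 rpm.

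A eukaryotic chromosome is copied once per cell cycle. The origin recognition complex marks start sites and loads the ring-shaped Mcm2-7 helicase, which the Dbf4-dependent kinase, GINS and further factors switch on. DNA polymerase alpha with primase lays down RNA-DNA primers, replication factor C loads the sliding clamp PCNA, polymerases delta and epsilon extend the strands, and ribonuclease H2, a helicase-nuclease and DNA ligase finish the lagging strand. In budding yeast many of these genes are transcribed around the entry into S phase, which is why their transcripts are often read as a sign of dividing cells. In a mycelium only part of the nuclei are in S phase at any time.

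The 8 libraries held 20727346 to 21408353 counts, so depth hardly differed. Transcript levels are given as RPKM, the deposited counts scaled to gene length and library total, and differences as log2 fold changes from edgeR with their standard errors (SE), fitted over all 8 libraries. Calls of higher or lower needed an edgeR adjusted p no larger than 0.05 and a fold minimum, 2 where the comparison was with JG207 and 1.5 where it was with DF1102 or between the pathway strains. Counts against JG207 and against DF1102 therefore rest on different fold minimums. Transcripts of the deleted gene Mtxyl1 (Mycth_43671) were lower in its deletion strains but still read, with 1676 and 1773 RPKM (JG207), 412 and 383 (DF1102), 102 and 109 (DF1406) and 252 and 228 (DF1501). Where along the gene these reads lie was not analysed here. Nothing in the source texts says that both libraries of each strain had their own culture, and the p-values thus cover the spread between these libraries only, which may be technical. In bulk RNA, fewer nuclei in S phase and less transcript per nucleus cannot be told apart.

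In DF1102, 20 of the 41 genes of the core replication machinery were lower than in JG207, among them PCNA and the catalytic subunits of all 3 replicative polymerases, and 38 of the 41 had a negative fold change. Of the 15 other members 1 was lower. Of all 56 members, 21 were called lower and 0 higher. Over all tested genes, 11.1% were called lower and 10.2% higher. The median log2 fold change was -0.84 over the members, -0.98 over the 41 core genes and -0.05 over the 15 others, against -0.01 over all tested genes. Many members missed the call on fold alone, since 40 had an adjusted p of at most 0.05 below JG207 and 5 above it. Over all 8335 tested genes, 2458 lay below and 2316 above JG207 at that threshold. At an unadjusted p under 0.05, 6 members were higher, against 2552 of all tested genes, and DESeq2 called 0 higher.

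In each pathway strain a part of the core genes was higher than in DF1102. Of the 41 core genes, 12 were called higher in DF1406 (29.3%) and 19 in DF1501 (46.3%). Of the 15 other members, 2 were called higher in DF1501 (13.3%). In DF1406, 12 members were called higher than in DF1102 and 0 lower, where 7.81% and 4.32% of all tested genes were. DF1501 had 21 members called higher than DF1102 and 0 lower, where the background was 13.1% and 8.24%. The median log2 fold changes of the core genes were 0.42 in DF1406 and 0.56 in DF1501, both against DF1102, whose 2 libraries the comparisons share. The comparison of DF1102 with JG207 rests on the same 2 DF1102 libraries. A low value in them therefore enters both the decrease against JG207 and the increase in the pathway strains. At an unadjusted p under 0.05, 7 members were lower in DF1406 and 5 in DF1501, against 1490 and 1854 of all 8335 tested genes. DESeq2 called 0 members lower in each.

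Against JG207, 2 members were called lower and 0 higher in DF1406, against 4.01% and 7.13% of all tested genes. In DF1501 0 were called lower and 0 higher, against 1.3% and 4.69%. The median log2 fold changes were -0.50 and -0.41. The zero counts again rest on the fold minimum in part. In DF1501 edgeR gave an unadjusted p under 0.05 to 33 members below JG207 and 3 above it, and in DF1406 to 2 above it. Over all 8335 tested genes, 1503 lay below and 1530 above at that threshold in DF1501, and 1793 above in DF1406. An adjusted p of at most 0.05 was reached by 36 members below JG207 in DF1406 and 22 in DF1501, against 1645 and 797 of all tested genes. DESeq2 made 0 calls in DF1501 and 0 higher calls in DF1406. Between the pathway strains, 6 members were higher and 1 lower in DF1501 at an unadjusted p under 0.05, against 1029 and 930 of all tested genes. By edgeR calls 0 members were higher and 0 lower, where 1.96% and 1.84% of all tested genes were, and DESeq2 called 0. That background of 163 higher and 153 lower genes depended on the libraries fitted, with 2 and 1 from the 4 libraries compared alone, 5 and 8 without DF1406 replicate 1, 4 and 9 without DF1406 replicate 2, 93 and 70 without DF1102 replicate 1, 91 and 70 without DF1102 replicate 2, 121 and 75 without DF1501 replicate 2 and 362 and 430 without DF1501 replicate 1.

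**Figure D1:**
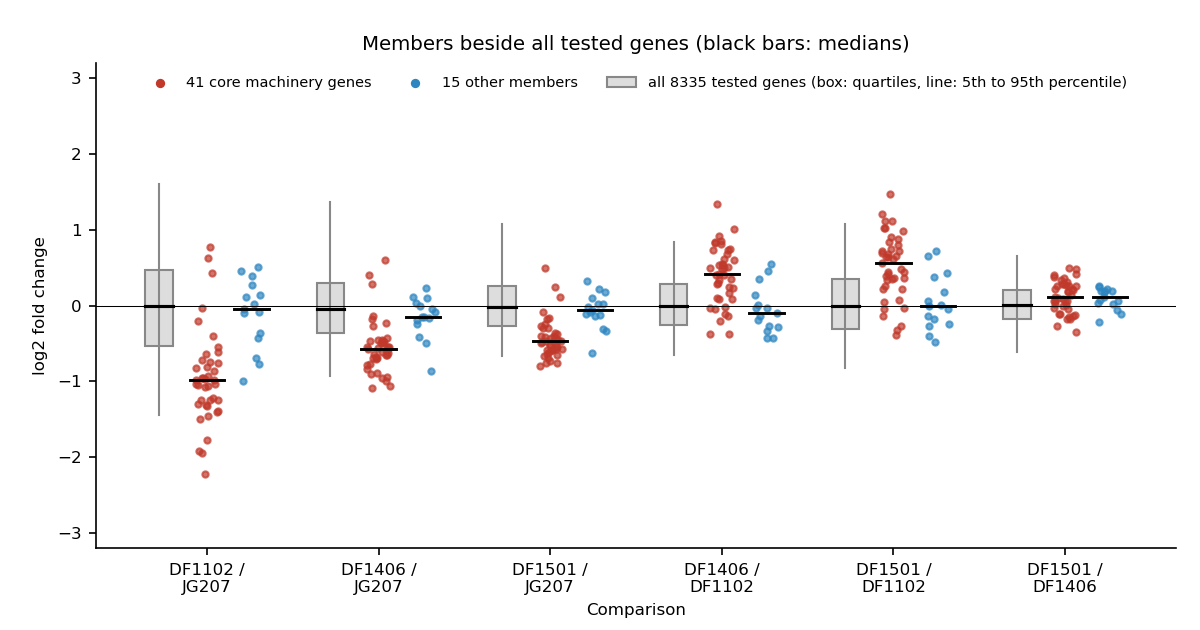
Log2 fold change (y axis) in the 6 comparisons (x axis) for the 41 core machinery genes (red), the 15 other members (blue) and all 8335 tested genes (grey box, quartiles; line, 5th to 95th percentile). Black bars are medians. The core median lies at -0.98 for DF1102 against JG207 and at 0.42 and 0.56 for DF1406 and DF1501 against DF1102, whereas the medians of all genes stay between -0.05 and 0.01.

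By strain means of RPKM, DF1102 was the lowest strain for 32 of the 41 core genes (78%) and for 32.2% of all tested genes. JG207 was the highest strain for 38 core genes (92.7%) and for 37.9% of all tested genes. Together the core genes took 0.138% and 0.168% of the counts (JG207), 0.0870% and 0.0894% (DF1102), 0.105% and 0.104% (DF1406) and 0.103% and 0.126% (DF1501). The DF1102 libraries were below all others in this sum and the JG207 libraries above all others, and the 2 pathway strains overlapped. Of the 56 members, 25 were called in at least 1 comparison and 31 in none.

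**Figure D2:**
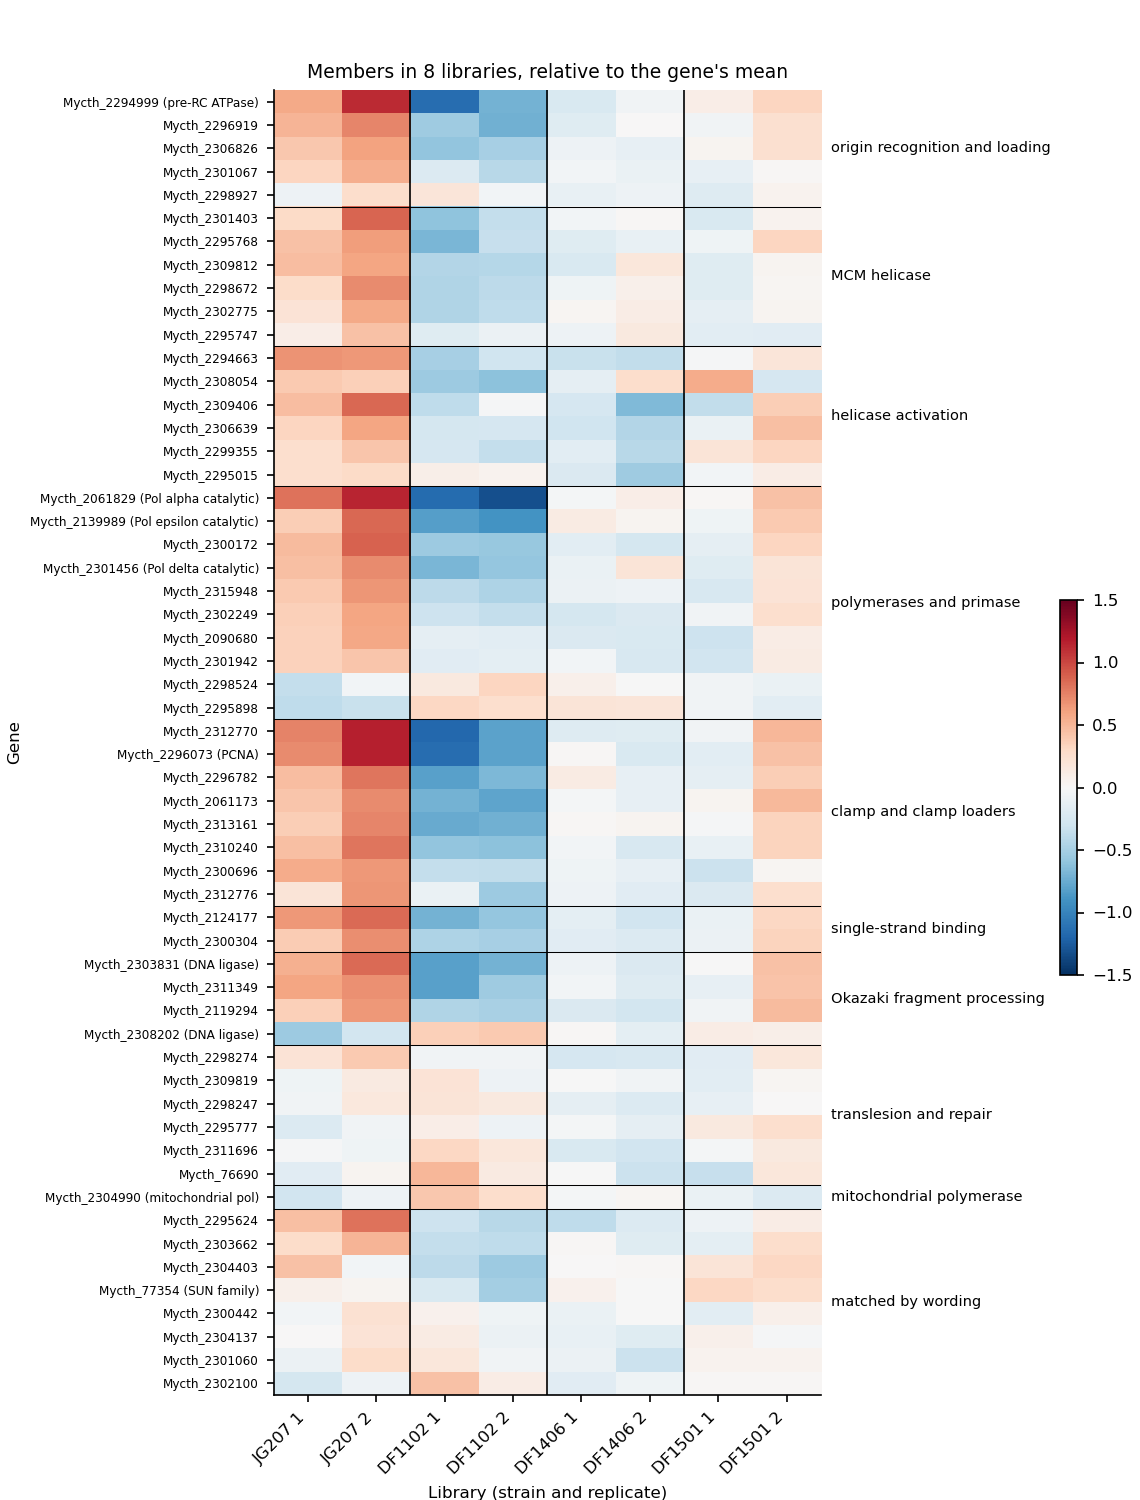
Log2 RPKM of each member (rows, grouped by role) in the 8 libraries (columns), minus the gene's mean over the libraries. Red is above the mean and blue below it. Most rows of the 7 core roles at the top are red in JG207, blue in DF1102 and pale in DF1406 and DF1501, and this order is missing from the translesion and repair rows and the mitochondrial polymerase.

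The 5 genes of origin recognition and helicase loading were led by Mycth_2294999, the ATPase of the pre-replicative complex that brings Mcm2-7 to origins. Its level was 7.03 and 10.3 RPKM (JG207), 2.15 and 2.9 (DF1102), 4.05 and 4.56 (DF1406) and 5.05 and 5.92 (DF1501). Compared with JG207, DF1102 was lower (log2 fold change -1.77 ± 0.21 (SE), edgeR adjusted p = 0.000133), and both DF1406 (0.83 ± 0.21, adjusted p = 0.0255) and DF1501 (1.11 ± 0.21, adjusted p = 0.00489) were higher than DF1102. The pathway strains fell between DF1102 and JG207 without overlapping either. Mycth_2296919, the largest subunit of the origin recognition complex, was at 6.22 and 7.26 RPKM (JG207), 3.02 and 2.64 (DF1102), 3.84 and 4.38 (DF1406) and 4.21 and 5.17 (DF1501). It was lower in DF1102 (-1.25 ± 0.15 (SE), edgeR adjusted p = 0.000163) and higher than there in DF1406 (0.60 ± 0.16, adjusted p = 0.0261) and DF1501 (0.72 ± 0.15, adjusted p = 0.00816), again with no overlap between the strains compared. The DF1406 call was lost with library size alone (0.54, adjusted p = 0.0607) and without any DF1102 or DF1406 library (adjusted p = 0.0632 to 0.151), and the DF1501 call without DF1102 replicate 2 (adjusted p = 0.06105). Mycth_2306826, an essential chromatin protein of replication initiation, was at 6.7 and 7.66 RPKM (JG207), 3.35 and 3.57 (DF1102), 4.8 and 4.64 (DF1406) and 5.19 and 5.99 (DF1501). It was lower in DF1102 (-1.05 ± 0.13 (SE), edgeR adjusted p = 0.000157) and higher than there in DF1501 (0.69 ± 0.13, adjusted p = 0.00466), whereas the value for DF1406 (0.51 ± 0.13, adjusted p = 0.0244) fell short of the 1.5-fold minimum.

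The other origin recognition subunits differed from each other. Mycth_2301067, the most abundant gene of this role, was at 20.6 and 24.1 RPKM (JG207), 14.2 and 12.3 (DF1102), 16 and 15.4 (DF1406) and 15.2 and 16.7 (DF1501), and its log2 fold change of -0.75 ± 0.11, adjusted p = 0.000411 in DF1102 stayed under 2-fold although the DF1102 libraries lay below the JG207 libraries. Mycth_2298927 gave -0.03 ± 0.14, adjusted p = 0.855 in the same comparison, the value nearest to 0 among the core genes.

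All 6 genes of the Mcm2-7 helicase had negative fold changes in DF1102 against JG207, from -1.08 to -0.41, and 2 of them were called lower. Mycth_2301403, a subunit that primes origins and unwinds DNA in S phase, was at 14.4 and 21.5 RPKM (JG207), 7.72 and 9.17 (DF1102), 11.5 and 11.9 (DF1406) and 10.02 and 12.2 (DF1501). It was lower in DF1102 (-1.08 ± 0.17 (SE), edgeR adjusted p = 0.000702), and neither DF1406 (0.53 ± 0.17, adjusted p = 0.0562) nor DF1501 (0.39 ± 0.17, adjusted p = 0.113) was called against DF1102. Mycth_2295768, described in nearly the same words, was at 19 and 21.6 RPKM (JG207), 8.74 and 11 (DF1102), 12.4 and 13 (DF1406) and 13.5 and 17.5 (DF1501). It was lower in DF1102 (-1.04 ± 0.15 (SE), edgeR adjusted p = 0.000358) and higher than there in DF1501 (0.64 ± 0.15, adjusted p = 0.011), where the 4 libraries did not overlap. Without DF1102 replicate 1 both genes dropped under 2-fold in DF1102, at -0.95 and -0.86. Mycth_2295747, the most abundant of the 6, moved least, with 17.1 and 21.6 RPKM (JG207), 14.1 and 15 (DF1102), 15.1 and 17.7 (DF1406) and 14.3 and 14.2 (DF1501) and a fold change of -0.41 ± 0.13, adjusted p = 0.0226 in DF1102. The other 3 subunits lay between -0.97 and -0.82 there, just short of 2-fold, and between 0.49 and 0.55 in DF1406 against DF1102. In that last comparison, edgeR called 0 of the 6 higher, with 5 at an unadjusted p under 0.05 and 0 by DESeq2. Over all tested genes edgeR called 7.81% higher there, so a count of 0 among 6 is not far from the background. All 6 fold changes were positive, with a median of 0.49 against -0.01 over all tested genes. An adjusted p of at most 0.05 was reached by 3 of the 6, short of 1.5-fold, against 990 of all 8335 tested genes.

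The 6 genes of helicase activation were less uniform. They comprise 3 subunits of GINS, the complex that joins Mcm2-7 in the active helicase, the 2 subunits of the Dbf4-dependent kinase and a further initiation factor. Mycth_2294663, a GINS subunit, was at 14.2 and 13.9 RPKM (JG207), 6.31 and 7.2 (DF1102), 7.03 and 6.89 (DF1406) and 8.79 and 10.1 (DF1501). Compared with JG207, DF1102 was lower (-1.06 ± 0.15 (SE), edgeR adjusted p = 0.00033). DF1406 lay close to DF1102 and DF1501 somewhat above it, and neither was called. Of the other GINS subunits, Mycth_2295015 gave -0.20 ± 0.14, adjusted p = 0.238 in DF1102. Mycth_2308054, at -0.96 ± 0.27, adjusted p = 0.0146 there, was just short of 2-fold. Its DF1501 libraries were as far apart as 14.7 and 8.41 RPKM.

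Mycth_2309406, the catalytic subunit of the Dbf4-dependent kinase, which phosphorylates Mcm2-7 to fire origins, was at 18.9 and 24.8 RPKM (JG207), 10.5 and 13.5 (DF1102), 11.5 and 8.62 (DF1406) and 10.6 and 17.7 (DF1501). DF1406 was lower than JG207 (-1.06 ± 0.23 (SE), edgeR adjusted p = 0.00756), with -0.86 ± 0.23, adjusted p = 0.0106 in DF1102, which was under 2-fold. The call was lost without JG207 replicate 2 (-0.91, edgeR adjusted p = 0.0503) and without DF1406 replicate 2 (-0.87, adjusted p = 0.0697). Its regulatory partner Mycth_2306639, the most abundant gene of this role, was at 26.8 and 32.1 RPKM (JG207), 17.7 and 18 (DF1102), 17.3 and 15.7 (DF1406) and 19.9 and 29.2 (DF1501), with fold changes under 2-fold in DF1102 (-0.72 ± 0.15, adjusted p = 0.00269) and DF1406 (-0.77 ± 0.15, adjusted p = 0.00424) against JG207. Neither pathway strain had a gene of this role called higher than DF1102, with 1 gene at an unadjusted p under 0.05 in DF1406 and 4 in DF1501. DESeq2 called 1 in each, Mycth_2308054, with fold changes of 0.75 and 0.80. Over all tested genes 7.81% were called higher by edgeR in DF1406 and 13.1% in DF1501. A count of 0 among 6 genes is not far from that background. In DF1501 3 of the 6 reached an adjusted p of at most 0.05 above DF1102, short of 1.5-fold, against 1513 of all 8335 tested genes.

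Among the 10 genes of the replicative polymerases and primase, the 3 catalytic subunits moved together. Mycth_2061829, the catalytic subunit of DNA polymerase alpha, which starts each strand, was at 4.3 and 5.4 RPKM (JG207), 1.09 and 0.976 (DF1102), 2.39 and 2.62 (DF1406) and 2.47 and 3.33 (DF1501). Its fold change in DF1102 was the largest decrease of all 56 members (-2.23 ± 0.17 (SE), edgeR adjusted p = 1.98e-05), a level of 0.214 times that in JG207. Both DF1406 (1.34 ± 0.18, adjusted p = 0.00283) and DF1501 (1.48 ± 0.18, adjusted p = 0.000817) were higher than DF1102, by 2.53-fold and 2.78-fold, and all 4 pathway libraries lay between the DF1102 and JG207 libraries. Mycth_2139989, the catalytic subunit of polymerase epsilon, which copies the leading strand in yeast, was at 3.3 and 4.63 RPKM (JG207), 1.44 and 1.37 (DF1102), 2.78 and 2.62 (DF1406) and 2.43 and 3.34 (DF1501). DF1102 was lower than JG207 (-1.49 ± 0.17 (SE), edgeR adjusted p = 0.000124), and the level was higher than there in DF1406 (1.0047 ± 0.17, adjusted p = 0.00768) and DF1501 (1.03 ± 0.17, adjusted p = 0.00313). DF1501 replicate 2 lay just above the lower JG207 library, so DF1501 and JG207 overlapped. Mycth_2301456, the catalytic subunit of polymerase delta, which copies the lagging strand in yeast, was at 12.7 and 15.2 RPKM (JG207), 5.8 and 6.2 (DF1102), 8.64 and 10.6 (DF1406) and 8.22 and 10.6 (DF1501). Both DF1102 libraries lay below JG207 (-1.22 ± 0.15 (SE), edgeR adjusted p = 0.000176), and the level was higher than there in DF1406 (0.75 ± 0.15, adjusted p = 0.012) and DF1501 (0.64 ± 0.15, adjusted p = 0.0118).

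The accessory subunits spread more widely. Mycth_2300172, the second-largest subunit of polymerase epsilon, was at 5.07 and 6.72 RPKM (JG207), 2.5 and 2.46 (DF1102), 3.26 and 3.04 (DF1406) and 3.32 and 4.57 (DF1501), was lower in DF1102 (-1.25 ± 0.17 (SE), edgeR adjusted p = 0.000307) and higher than there in DF1501 (0.66 ± 0.17, adjusted p = 0.0188). The third-largest epsilon subunit, Mycth_2298524, was the most abundant gene of this role and went the other way, with 33.1 and 41.2 RPKM (JG207), 46.6 and 53 (DF1102), 44.4 and 42.2 (DF1406) and 40.9 and 39.3 (DF1501) and a fold change of 0.43 ± 0.13, adjusted p = 0.0179 in DF1102, under 2-fold. The helicase associated with polymerase alpha, Mycth_2295898, also had a positive value there (0.63 ± 0.10, adjusted p = 0.000772). The 2 primase subunits Mycth_2315948 and Mycth_2301942 (-0.96 and -0.55), the second delta subunit Mycth_2302249 (-0.82) and the B subunit of polymerase alpha, Mycth_2090680 (-0.62), were all below JG207 by less than 2-fold. Subunits of one polymerase thus had unequal fold changes, from -1.49 to 0.43 within epsilon and -2.23 to -0.62 between the catalytic and B subunits of alpha.

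**Figure D3:**
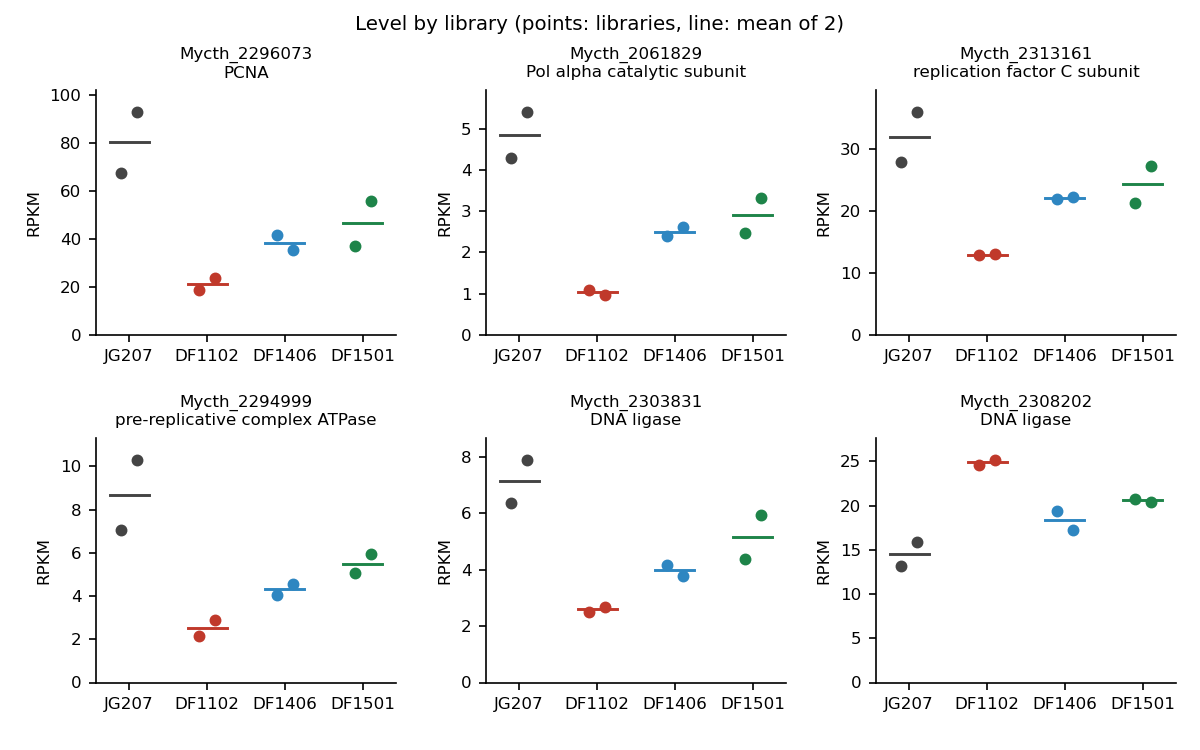
RPKM (y axis) of 6 members in each library (points) with the mean of 2 (line) for the strains JG207, DF1102, DF1406 and DF1501 (x axis). PCNA, the polymerase alpha catalytic subunit, a replication factor C subunit, the pre-replicative complex ATPase and the ligase Mycth_2303831 are lowest in both DF1102 libraries, while the ligase Mycth_2308202 is highest there, at 24.6 and 25.2 RPKM.

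The sliding clamp and its loaders, 8 genes, held more called genes than any other role. In DF1102 6 were lower than in JG207 (75%, against 11.1% of all tested genes). Against DF1102, 5 were higher in DF1406 (62.5%, against 7.81%) and 6 in DF1501 (75%, against 13.1%). Roles differ in size, and by share the 2 single-strand binding genes stood higher in the first and last of these comparisons (100% in each). PCNA itself, Mycth_2296073, which holds the polymerases on DNA, was the most abundant core gene, at 67.5 and 92.7 RPKM (JG207), 18.7 and 23.7 (DF1102), 41.6 and 35.2 (DF1406) and 37 and 56 (DF1501). The level in DF1102 was lower (-1.91 ± 0.20 (SE), edgeR adjusted p = 7.59e-05), and both DF1406 (0.92 ± 0.20, adjusted p = 0.0149) and DF1501 (1.12 ± 0.20, adjusted p = 0.00369) were higher than DF1102. Every pathway library lay above both DF1102 libraries and below both JG207 libraries. DF1406 against JG207 gave -0.9967 ± 0.19, adjusted p = 0.00456, just under the 2-fold minimum.

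Replication factor C, the complex that opens PCNA and closes it around DNA, is represented by 5 genes with the same description. Mycth_2312770 was at 17.1 and 22.8 RPKM (JG207), 4.5 and 5.85 (DF1102), 8.94 and 8.98 (DF1406) and 9.81 and 14.4 (DF1501). Against JG207 it was lower in DF1102 (-1.94 ± 0.21 (SE), edgeR adjusted p = 7.87e-05) and DF1406 was lower as well (-1.09 ± 0.20, adjusted p = 0.0031). Without JG207 replicate 2 that second value was -0.93 and no longer called. Against DF1102 it was higher in DF1406 (0.85 ± 0.21, adjusted p = 0.0216) and DF1501 (1.21 ± 0.21, adjusted p = 0.0032). Mycth_2296782 was at 12.8 and 16.2 RPKM (JG207), 5.26 and 5.78 (DF1102), 10.1 and 8.48 (DF1406) and 8.43 and 12 (DF1501), lower in DF1102 (-1.39 ± 0.18 (SE), edgeR adjusted p = 0.000216) and higher than there in DF1406 (0.81 ± 0.18, adjusted p = 0.0164) and DF1501 (0.87 ± 0.18, adjusted p = 0.00691). Mycth_2313161 had the highest mean level of the 5, at 27.8 and 35.9 RPKM (JG207), 12.8 and 13.1 (DF1102), 21.8 and 22.3 (DF1406) and 21.3 and 27.2 (DF1501). In DF1102 the transcript was lower (-1.30 ± 0.13 (SE), edgeR adjusted p = 6.97e-05), and the level was higher than there in DF1406 (0.83 ± 0.13, adjusted p = 0.00582) and DF1501 (0.90 ± 0.13, adjusted p = 0.00189), with no overlap between DF1102 and any other strain. The remaining subunits, Mycth_2300696 (-0.98) and Mycth_2312776 (-0.75), were below JG207 in DF1102 by less than 2-fold.

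The alternative clamp loader that serves sister chromatid cohesion shares subunits with replication factor C and has 2 genes with one description. Mycth_2061173 was at 4.12 and 5.01 RPKM (JG207), 1.88 and 1.77 (DF1102), 3.02 and 2.81 (DF1406) and 3.16 and 4.29 (DF1501). DF1102 was lower than JG207 (-1.32 ± 0.16 (SE), edgeR adjusted p = 0.000151), and the level was higher than there in DF1406 (0.74 ± 0.16, adjusted p = 0.0154) and DF1501 (1.02 ± 0.16, adjusted p = 0.00231). Mycth_2310240 was at 7.27 and 9.24 RPKM (JG207), 3.51 and 3.47 (DF1102), 5.17 and 4.5 (DF1406) and 4.89 and 6.71 (DF1501). Both DF1102 libraries lay below JG207 (-1.24 ± 0.16 (SE), edgeR adjusted p = 0.000195), and the level was higher than there in DF1501 (0.72 ± 0.16, adjusted p = 0.00857), and its value in DF1406 (0.53 ± 0.16, adjusted p = 0.0424) was under 1.5-fold.

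Replication protein A coats the single strands that the helicase exposes, and both of its subunits found were lower in DF1102. Mycth_2124177, the more abundant, was at 27.4 and 31.4 RPKM (JG207), 10.7 and 11.6 (DF1102), 15.7 and 14.3 (DF1406) and 16.2 and 21.5 (DF1501), with -1.40 ± 0.14 (SE), edgeR adjusted p = 6.84e-05 in DF1102 against JG207 and 0.75 ± 0.14, adjusted p = 0.00508 in DF1501 against DF1102. Mycth_2300304 was at 17.9 and 22.2 RPKM (JG207), 9.9 and 9.71 (DF1102), 12.1 and 11.9 (DF1406) and 12.9 and 17.2 (DF1501), with -1.03 ± 0.13 (SE), edgeR adjusted p = 0.000218 and 0.61 ± 0.13, adjusted p = 0.00879 in the same comparisons. In DF1406 neither reached 1.5-fold over DF1102 (0.49 and 0.35), although in both genes the DF1406 libraries lay above the DF1102 libraries.

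Okazaki fragments, the short pieces of the lagging strand, are finished by 4 members, and the 2 that match the same yeast DNA ligase differed in direction. Mycth_2303831 was at 6.38 and 7.89 RPKM (JG207), 2.5 and 2.69 (DF1102), 4.18 and 3.77 (DF1406) and 4.38 and 5.95 (DF1501). The level in DF1102 was lower (-1.46 ± 0.16 (SE), edgeR adjusted p = 9.03e-05), and the level was higher than there in DF1406 (0.68 ± 0.16, adjusted p = 0.0202) and DF1501 (0.98 ± 0.16, adjusted p = 0.00271). Mycth_2308202, with the higher level of the 2, was at 13.2 and 15.9 RPKM (JG207), 24.6 and 25.2 (DF1102), 19.4 and 17.3 (DF1406) and 20.8 and 20.4 (DF1501). Its DF1102 libraries lay above those of every other strain, with 0.78 ± 0.11, adjusted p = 0.000432 against JG207, short of 2-fold, and -0.38 ± 0.11, adjusted p = 0.043 in DF1406 against DF1102. The yeast ligase acts in the nucleus and in mitochondria, and the files do not say which of the 2 genes serves which compartment.

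Mycth_2311349, the catalytic subunit of ribonuclease H2, which removes RNA primers, was at 13.3 and 14.1 RPKM (JG207), 4.97 and 6.05 (DF1102), 8.51 and 7.69 (DF1406) and 8.06 and 11.8 (DF1501). Against JG207 it was lower in DF1102 (-1.31 ± 0.18 (SE), edgeR adjusted p = 0.000312) and higher than there in DF1406 (0.62 ± 0.18, adjusted p = 0.0429) and DF1501 (0.84 ± 0.18, adjusted p = 0.00861). The DF1406 call was lost with library size alone (adjusted p = 0.0777) and without any library of JG207, DF1102 or DF1406 (adjusted p = 0.05925 to 0.2355). The DF1501 call was lost without DF1102 replicate 1 (adjusted p = 0.0732). Mycth_2119294, a helicase and nuclease that trims fragment ends, was at 4.29 and 5.26 RPKM (JG207), 2.45 and 2.37 (DF1102), 2.88 and 2.75 (DF1406) and 3.21 and 4.63 (DF1501). It missed the call in DF1102 against JG207 by a small margin (-0.98 ± 0.16, adjusted p = 0.000866) and was higher in DF1501 than in DF1102 (0.69 ± 0.16 (SE), edgeR adjusted p = 0.0123). This gene and the initiation gene Mycth_2306826 are the only members that neighbour each other in the RefSeq gene order, and since no source states whether the counting used strand, reads shared between neighbours cannot be told apart.

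**Figure D4:**
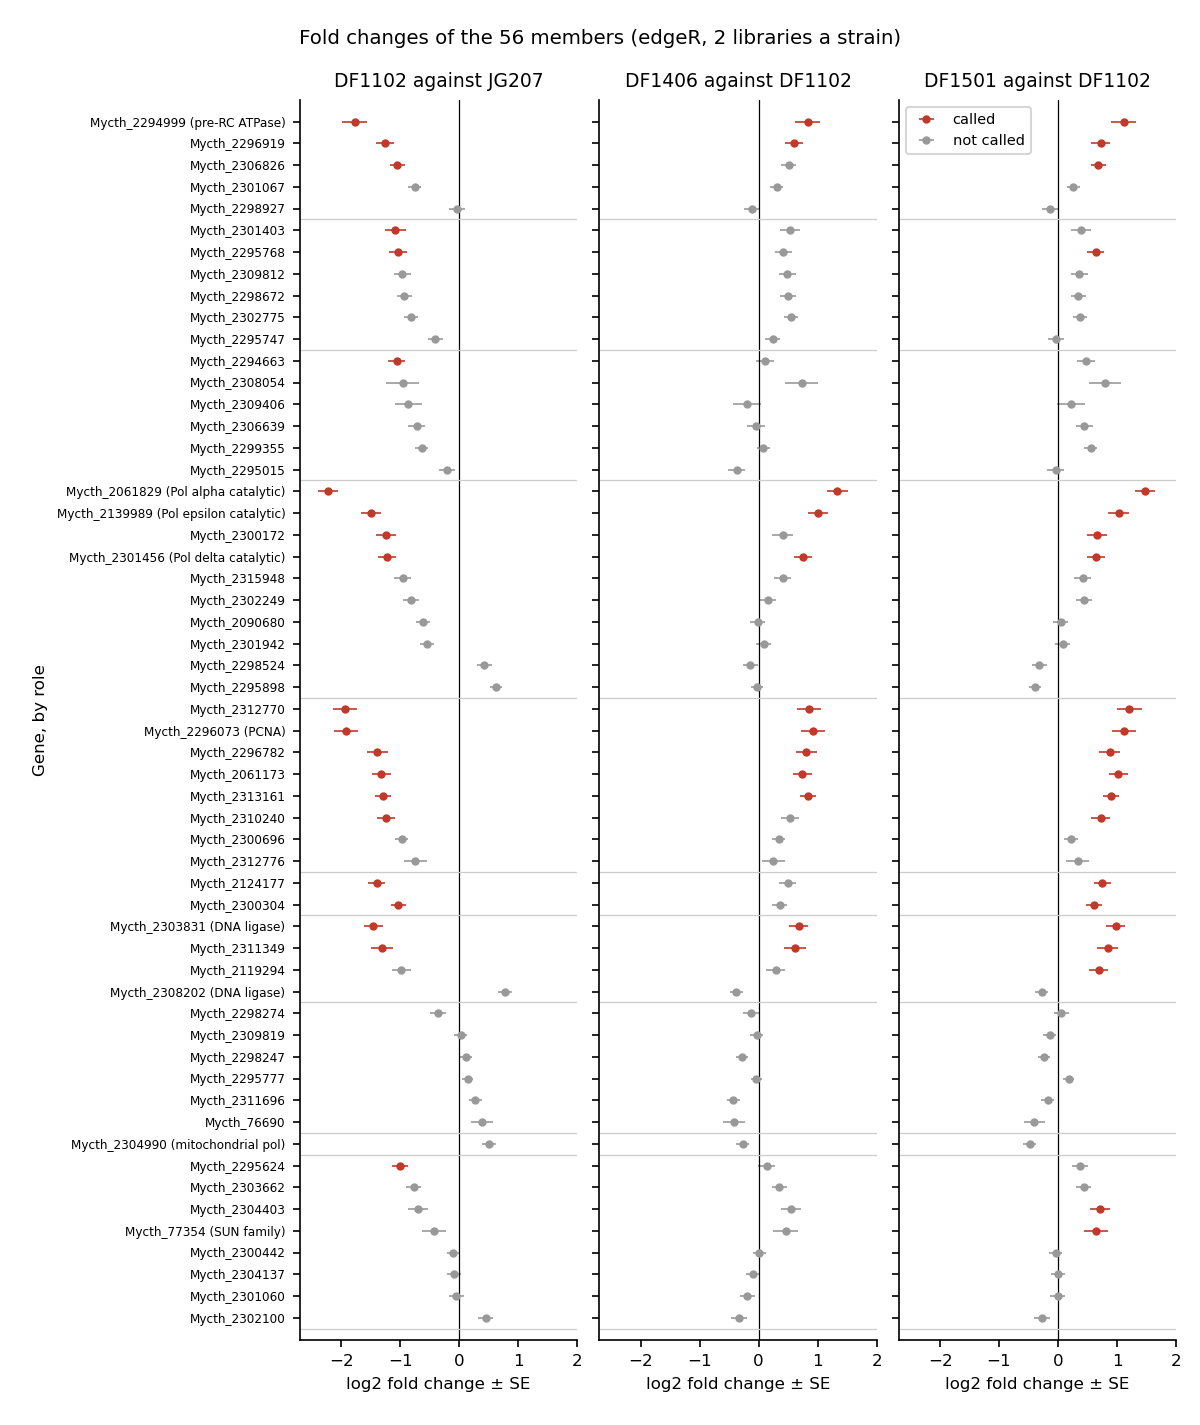
Log2 fold change with its SE (x axis) of the 56 members (y axis, grouped by role and ordered within a role by the first panel) for DF1102 against JG207, DF1406 against DF1102 and DF1501 against DF1102. Red points were called and grey points were not. The panels hold 21, 12 and 21 red points, and all called points lie left of 0 in the first panel and right of 0 in the others.

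Translesion polymerases copy past damaged bases, and the mitochondrial polymerase copies the mitochondrial genome. The 6 translesion and repair members (polymerases eta, zeta and IV, a mismatch repair protein and 2 ubiquitin ligases that modify PCNA) had fold changes in DF1102 from -0.36 to 0.38. None was called in any of the 6 comparisons by edgeR, and with the 11.1% of all tested genes called lower and 10.2% called higher in DF1102, a count of 0 among 6 genes is not far from the background. At an unadjusted p under 0.05 there were 1 above and 1 below JG207 in DF1102, and 3 below DF1102 in DF1406. Against JG207 there were also 1 below in DF1406, and 1 above and 1 below in DF1501. DF1501 had 1 below DF1102 and 1 above DF1406. Under the fold minimums, Mycth_2298274 reached an adjusted p of at most 0.05 below JG207 in DF1102 and DF1406. So did Mycth_2311696 below DF1102 in DF1406 and Mycth_2295777 above JG207 in DF1501. DESeq2 called 0 in each direction in all 6 comparisons. The most abundant, the ubiquitin ligase Mycth_2309819, was at 25.5 and 29.1 RPKM (JG207), 30.5 and 25.2 (DF1102), 26.5 and 25.7 (DF1406) and 23.7 and 27 (DF1501), and all strains overlapped. Mycth_2304990, the catalytic subunit of the mitochondrial DNA polymerase, was at 22.3 and 25.9 RPKM (JG207), 35.9 and 32.6 (DF1102), 26.7 and 27.8 (DF1406) and 25.5 and 23.7 (DF1501). Its DF1102 libraries lay above all others, with 0.50 ± 0.11, adjusted p = 0.00396 against JG207 and -0.48 ± 0.11, adjusted p = 0.0109 in DF1501 against DF1102, both under the fold minimums.

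The 8 members whose descriptions mention replication or DNA polymerases in passing were mixed. Mycth_2295624, described as DNA polymerase phi, which in yeast works in ribosomal RNA synthesis, was at 9.2 and 11.8 RPKM (JG207), 5.44 and 5.05 (DF1102), 5.15 and 5.85 (DF1406) and 6.38 and 7.29 (DF1501). Its call in DF1102 (-1.0002 ± 0.14 (SE), edgeR adjusted p = 0.000287) sat on the 2-fold line and was lost in DESeq2 (-0.99) and in 8 further alternatives of scaling, fit or libraries. Mycth_2304403, the mitochondrial part of the tether between the endoplasmic reticulum and mitochondria, was at 100.005 and 71.9 RPKM (JG207), 56.5 and 50.6 (DF1102), 74.2 and 75.2 (DF1406) and 84.9 and 92 (DF1501) and was higher in DF1501 than in DF1102 (0.72 ± 0.17 (SE), edgeR adjusted p = 0.0118). Mycth_77354, a SUN family protein, had by far the highest level, at 2858 and 2785 RPKM (JG207), 2317 and 1906 (DF1102), 2832 and 2711 (DF1406) and 3355 and 3260.4 (DF1501), and was higher in DF1501 than in DF1102 (0.65 ± 0.21 (SE), edgeR adjusted p = 0.0382). That call was lost when only the 4 libraries of the 2 strains were fitted (adjusted p = 0.123), and when any library other than DF1501 replicate 2 was left out (0.0502 to 0.204). The 2 subunits of FACT, which moves nucleosomes aside for polymerases, had unequal values in DF1102, -0.77 ± 0.13, adjusted p = 0.000759 for Mycth_2303662 and -0.10 ± 0.11, adjusted p = 0.462 for Mycth_2300442. The other 3 lay between -0.09 and 0.45 there.

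The libraries of a strain did not lie equally close. In JG207 and in DF1501, replicate 2 was above its strain's mean for 46 of the 56 members, with median deviations of 0.07 and 0.10 on the log2 scale, whereas DF1102 and DF1406 had medians within 0.01 of 0. Leaving out single libraries changed how many members were called but turned no called member's direction. Lower members in DF1102 against JG207 numbered 17 to 23, and the calls lost in 1 or more of these fits were those of Mycth_2294663, Mycth_2295624, Mycth_2295768, Mycth_2300304, Mycth_2301403 and Mycth_2306826, each of which had a fold of about the minimum. Higher members in DF1406 against DF1102 dropped from 12 to 1 without DF1102 replicate 1, 2 without DF1102 replicate 2, 5 without DF1406 replicate 1 and 3 without DF1406 replicate 2. Of the 12, the polymerase alpha gene Mycth_2061829 alone was called in all of these fits, and the lost calls had an adjusted p of 0.0534 to 0.2355. Calls over all genes dropped as well, from 651 to 98, 183, 321 and 228. Of the 21 members higher in DF1501 than in DF1102, not all stayed called without a DF1102 library or without DF1501 replicate 2. The calls of Mycth_2119294, Mycth_2300172, Mycth_2300304, Mycth_2301456 and Mycth_2310240 were lost without either DF1102 library and without DF1501 replicate 2. In the last of these fits their fold changes were 0.46, 0.47, 0.44, 0.50 and 0.53, under 1.5-fold. With 1 library left in a strain, its spread is taken from the other strains.

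Genes that work beside the replication machinery but lie outside the wording rule were looked at by lists of description words. Ribonucleotide reductase makes the deoxyribonucleotides for DNA synthesis, and the rule missed it because the descriptions read ribonucleotide-diphosphate reductase. Its small subunit, Mycth_68292, was at 70.1 and 92.6 RPKM (JG207), 12.7 and 16.3 (DF1102), 39.2 and 32.5 (DF1406) and 36 and 58.1 (DF1501). Compared with JG207, DF1102 was lower (-2.48 ± 0.22 (SE), edgeR adjusted p = 3.48e-05), and the level was higher than DF1102 in DF1406 (1.36 ± 0.21, adjusted p = 0.00535) and DF1501 (1.68 ± 0.21, adjusted p = 0.00103), with the pathway strains between the others. The large subunit, Mycth_2311451, was at 44.7 and 55.4 RPKM (JG207), 18.5 and 21.1 (DF1102), 31.5 and 25.8 (DF1406) and 30.4 and 39.5 (DF1501), lower in DF1102 (-1.34 ± 0.15 (SE), edgeR adjusted p = 9.01e-05) and higher than there in DF1406 (0.59 ± 0.14, adjusted p = 0.0216) and DF1501 (0.81 ± 0.14, adjusted p = 0.00383).

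Of 7 further genes of deoxyribonucleotide supply, 3 were lower in DF1102 than in JG207 (42.9%, against 11.1% of all tested genes). Against DF1102, 4 were higher in DF1406 (57.1%, against 7.81%) and 3 in DF1501 (42.9%, against 13.1%). The dUTPase Mycth_2296069, which keeps uracil out of DNA, was at 87 and 93.8 RPKM (JG207), 17.8 and 20.8 (DF1102), 38.9 and 33.1 (DF1406) and 32.4 and 54.3 (DF1501), with -2.23 ± 0.20 (SE), edgeR adjusted p = 3.73e-05 in DF1102 and 1.15 ± 0.20, adjusted p = 0.00331 in DF1501 against DF1102. Thymidylate synthase, Mycth_2308073, was at 37.4 and 32 RPKM (JG207), 12.5 and 11.5 (DF1102), 21.4 and 23.2 (DF1406) and 23.1 and 26.5 (DF1501), with -1.54 ± 0.14 (SE), edgeR adjusted p = 3.7e-05 and 1.05 ± 0.14, adjusted p = 0.00117 in the same comparisons. These 2 genes were named for the largest fold changes of the list in DF1501 against DF1102. A low level in DF1102 thus follows in part from the choice. In both genes the DF1102 libraries were below those of every other strain.

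Histones package the copied DNA, and of 9 core histone genes, linker histone H1 included, 3 were lower in DF1102 (33.3%, against 11.1% of all tested genes) and 2 were higher in DF1501 than in DF1102 (22.2%, against 13.1%). Histone H2A, Mycth_112137, was at 1236 and 1476 RPKM (JG207), 474 and 631 (DF1102), 770.5 and 609.8 (DF1406) and 773 and 1161 (DF1501), with -1.29 ± 0.22 (SE), edgeR adjusted p = 0.000884 in DF1102 and 0.79 ± 0.21, adjusted p = 0.0203 in DF1501 against DF1102. Histone H4, Mycth_2071169, was at 3090.1 and 3162 RPKM (JG207), 1228 and 1789 (DF1102), 2021 and 1498 (DF1406) and 2019 and 3038 (DF1501), with -1.05 ± 0.24 (SE), edgeR adjusted p = 0.00451 and 0.73 ± 0.24, adjusted p = 0.0401. In DF1406 against DF1102 edgeR called 0 histone genes higher, with 0 at an unadjusted p under 0.05 and 0 by DESeq2, and the median fold change was 0.11. Over all tested genes edgeR called 7.81% higher there, so a count of 0 among 9 is not far from the background. DF1501 replicate 2 exceeded replicate 1 in both genes named, which were chosen by their fold change in DF1501 against DF1102. The 13 chromatin assembly genes, a list that takes in core histones, had 4 lower in DF1102 (30.8%, against 11.1% of all tested genes). In DF1406 1 of them was higher than in DF1102 (7.69%, against 7.81%) and in DF1501 3 were (23.1%, against 13.1%).

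Replication genes outside the rule, 18 in all, had 2 lower (11.1%) and 1 higher (5.56%) in DF1102 than in JG207, and cohesin and condensin genes had 2 of 17 lower (11.8%), where 11.1% of all tested genes were lower and 10.2% higher. The 2 lists share Mycth_2301111, a subunit of the complex that pauses stalled forks, at 5.56 and 6.52 RPKM (JG207), 1.59 and 1.7 (DF1102), 3.12 and 2.32 (DF1406) and 2.8 and 4.01 (DF1501) and with -1.87 ± 0.19 (SE), edgeR adjusted p = 6.51e-05 in DF1102. A cohesion protein, Mycth_2312134, was also lower there (-1.59 ± 0.16, adjusted p = 5.77e-05), while the G1 to S transcription factor Mycth_2302964 gave -0.96 ± 0.13, adjusted p = 0.000295, short of 2-fold, and was higher in DF1501 than in DF1102 (0.65 ± 0.13, adjusted p = 0.00653). Against DF1102, 2 genes of each list were called higher in DF1406 and in DF1501 (11.1% and 11.8%), where 7.81% and 13.1% of all tested genes were, and 1 of the 18 was lower in DF1406 (5.56%, against 4.32%). These shares lie near the background. The medians in DF1102 against JG207 were -0.40 over the 18 genes and -0.34 over the 17, against -0.01 over all tested genes. Negative fold changes there were found in 13 of the 18 and 14 of the 17. The genes named here were chosen by their fold change in DF1501 against DF1102, so a low level in DF1102 follows in part from the choice. The gene called higher in DF1102 than in JG207 is not among them.

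The broader lists of the cell cycle were called about as often as all genes or less often in DF1102 against JG207, with no test of the difference. Of 82 tested genes of DNA repair and damage checkpoints 9 were lower (11%) and 5 higher (6.1%), of 70 cyclins and G1/S regulators 4 (5.71%) and 2 (2.86%), and of 84 kinetochore, spindle and mitosis genes 7 (8.33%) and 3 (3.57%), against 11.1% and 10.2% of all tested genes. Their medians were -0.08, -0.06 and -0.09. The fold changes reached both ways, from -1.87 to 1.93, from -2.18 to 1.20 and from -1.53 to 2.41. Of each list the 2 genes with the largest fold change in DF1501 against DF1102 are named here, and those called higher in DF1102 are not among them. The homeodomain repressor of early cell cycle boxes, Mycth_2294145, was at 15.1 and 21.3 RPKM (JG207), 3.25 and 4.74 (DF1102), 7.35 and 6.2 (DF1406) and 8.47 and 13.5 (DF1501) and lower in DF1102 (-2.18 ± 0.25 (SE), edgeR adjusted p = 0.00011), and the outer kinetochore protein Mycth_2311445 was lower there as well (-1.53 ± 0.18, adjusted p = 0.000123). The largest subunit of the anaphase-promoting complex, Mycth_2080800, was under 2-fold in DF1102 (-0.71 ± 0.11, adjusted p = 0.000525) and higher in DF1501 than in DF1102 (0.87 ± 0.11, adjusted p = 0.000951). Higher in DF1501 than in DF1102 were also a protein kinase of the repair list, Mycth_52807 (2.58 ± 0.63, adjusted p = 0.013), whose level was 0.168 to 3.05 RPKM over the libraries, and the mismatch repair gene Mycth_2296585 (1.27 ± 0.33, adjusted p = 0.0184).

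Ribosome biogenesis, a list set beside replication because growing cells use both, had 14 of 94 tested genes lower in DF1102 (14.9%, against 11.1% of all tested genes) and 1 higher (1.06%, against 10.2%), and the median against JG207 was -0.46. Its median against DF1102 was 0.21 in DF1406, with 11 genes higher (11.7%, against 7.81%), and 0.04 in DF1501, with 6 higher (6.38%, against 13.1%) and 2 lower (2.13%, against 8.24%). The core replication genes had medians of 0.42 and 0.56 in these comparisons, and the difference between the lists was not tested. The ribosomal protein Mycth_2303426 was lower in DF1102 (-1.18 ± 0.17, adjusted p = 0.000353) and higher than there in DF1501 (0.74 ± 0.17, adjusted p = 0.00956), as was the nucleolar protein Mycth_2060417 (-1.17 ± 0.12, adjusted p = 7.63e-05 and 0.71 ± 0.12, adjusted p = 0.00331). Both were chosen by their fold change in DF1501 against DF1102.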

How the data were processed

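Reads were cleaned in SOAPnuke, aligned in TopHat2 2.0.12 and counted per gene in HTSeq 0.13.5 by the authors, who deposited these counts together with RPKM values, which divide the counts by gene length and library total. One deposited count column, JG207 replicate 1, ends in rows that are not whole and was entered as estimated counts for that reason, although its gene rows are whole. The 3 rows without a gene ID were left out and 0 columns were unused. The strand setting is not given in the sources used here. Tool names come from the submitters' processing notes and the study's methods.

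Strains were compared on the counts in edgeR 4.0.16 (R 4.3.3), using TMM factors, quasi-likelihood fits and Benjamini-Hochberg adjustment over all 8335 genes that passed the filter (minimum count 10), which was checked on simulated data. Each comparison was fitted over all 8 libraries with strain as the only term. Standard errors are the fold change divided by the root of the F statistic. RPKM values, as deposited, were used for levels. Totals of 20727346 to 21408353 counts put the tested members at 91 counts or more in every library. DESeq2 1.42.0, RLE factors, library size alone, no filter, no fold minimum, only the 4 libraries compared, a replicate block and leaving out each library were the alternatives.

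Members and lists were chosen with earlier results of these data known, and the ribonucleotide reductase list was added after the descriptions had been read. Values of all libraries are given for each member called in at least 1 comparison and for the most abundant of each role, and of each list outside the rule the 2 genes with the largest fold change in DF1501 against DF1102 were named. Roles were set by description alone. Lists overlap and got no test of their own. All 56 members matched a locus tag in the RefSeq gene table, which was used for gene order only. Sequences and promoters were not analysed here.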

Additional observations from a re-analysis of the deposited data

Results flagged for a closer look

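The replication initiation factor Mycth_2299355 was the only member with an edgeR adjusted p of at most 0.05 between the pathway strains, DF1501 against DF1406. Its log2 fold change there was 0.48 ± 0.11 (SE, adjusted p = 0.046), or 1.39-fold, under the 1.5-fold minimum, so it was not called. The levels were 15.4 and 17.2 RPKM (JG207), 10.9 and 10.1 (DF1102), 11.6 and 9.66 (DF1406) and 14.8 and 16.2 (DF1501), and both DF1501 libraries lay above both DF1406 libraries and overlapped JG207. Because DF1406 and DF1501 are compared with the same DF1102 libraries, this difference is also the difference between their fold changes against DF1102, 0.08 and 0.56. The insertions of the 2 strains differ as well as their pathway genes, and these cannot be told apart.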

How the results depend on the processing

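Each of 18 results (members higher, members lower and the median fold change in 6 comparisons) was recomputed. With DESeq2, RLE factors, no filter on low counts, only the 4 libraries compared and the replicate block, all 18 stayed within 1.5 times the count or within the spread between libraries. The replicate block gave 20 lower members in DF1102 against JG207, 12 higher in DF1406 and 21 higher in DF1501 against DF1102. Across all genes, deviations of samples of one number were weakly related, with both signs (r from -0.22 to 0.17 over the 6 pairs of strains). The numbers were therefore not taken to pair the libraries. Among the members, replicate 2 was above its strain's mean for 46 genes in JG207, 30 in DF1102, 26 in DF1406 and 46 in DF1501. Library size alone gave 5 lower members in DF1406 against JG207, since the median of all genes there moved to -0.11, and turned the split of all genes called in DF1406 against DF1102 from 651 higher and 360 lower (64.4% higher) to 524 and 511 (50.6%), and in DF1501 against DF1406 from 163 and 153 (51.6%) to 286 and 161 (64.0%).

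With no fold minimum, higher and lower members against JG207 numbered 5 and 40 (DF1102), 2 and 36 (DF1406) and 2 and 22 (DF1501). Over all tested genes these counts were 2316 and 2458, 1430 and 1645, and 976 and 797. Against DF1102 there were 19 and 2 members in DF1406 and 28 and 2 in DF1501, against 990 and 825 and 1513 and 1358 of all tested genes. In DF1501 against DF1406, 1 member was higher, against 211 of all tested genes. Leaving out single libraries gave 1 to 4 lower members in DF1406 and 0 to 2 in DF1501 against JG207, 1 to 13 higher in DF1406 and 12 to 22 in DF1501 against DF1102, and 0 to 2 higher in DF1501 against DF1406. The medians then ranged from -0.52 to -0.26 in DF1501 against JG207, from 0.30 to 0.51 in DF1501 against DF1102 and from 0.0188 to 0.22 in DF1501 against DF1406. The lowest and highest of these medians came from leaving out DF1501 replicates 2 and 1. The cause was not tested. The lowest member and library had about 91 counts, and how much of the spread between libraries is counting error was not tested.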
